A study of Drosophila melanogaster with 16 samples.

Results

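The data are 210 peaks of open chromatin at gene ends in the fat body of female Drosophila melanogaster that held more ATAC-seq reads at 25 °C than at 11 °C. In ATAC-seq a transposase inserts adapters where DNA is accessible, and reads pile up in peaks there, more of them the more open the DNA. The peaks were chosen from 8069 by 3 conditions. The overall mean had to reach 5 on the log2 scale, which is 32 normalised reads. The 25 °C mean had to exceed the 11 °C mean by at least 0.5 (log2), which is 1.41-fold. The midpoint had to lie at most 500 bp from a gene's end, and 26 peaks that met these conditions within 500 bp of a tRNA gene were left out. In the same table, 4922 gene-end peaks passed the level and tRNA conditions, and 155 of them met the reverse condition, a mean at least 0.5 higher at 11 °C.

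The ends of a gene are its transcription start, where the promoter lies, and its 3′ end. Open chromatin at a promoter marks DNA that is free for transcription factors and the polymerase to bind, and it is commonly, though not always, found where a gene is active or poised. The gene table used here gives no strand, so starts and 3′ ends are not separated. The fat body is the fly's liver and adipose tissue. It stores lipid and glycogen, loads the haemolymph with lipoproteins, makes yolk proteins in females and secretes antimicrobial peptides.

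The flies were w1118 virgin females reared at 25 °C, moved into their condition within 8 h of eclosion and kept there for 25 days at 25 °C or at 11 °C. At each temperature they received 10 µL of 99% ethanol every 2 days by volatilisation, or S-methoprene, a juvenile hormone analog, at 39.4 mM in that ethanol. The labels print the unit as mm, which is read here as mM. The 16 libraries thus fall into 4 groups of 4, and each was made from the fat bodies of 25 flies. Flies were kept only if their ovaries looked as foreseen for their group, which was large at 25 °C and with S-methoprene, and regressed, the morphology of diapause, at 11 °C with ethanol. Temperature and this choice by ovary state cannot be told apart, and each temperature mean may join both vapours. In the deposited table the overall mean is 3 parts 25 °C to 4 parts 11 °C. That weight fits 3 against 4 or 6 against 8 libraries, of 8 labelled at each temperature, and which libraries entered is not stated. The table holds 1 mean per temperature and no value per library, so no spread between replicates can be given and every comparison of levels below is a description. Fat body from 25 flies is bulk tissue. More nuclei of a cell type and more open chromatin per nucleus cannot be told apart in it.

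The 210 peaks held a median of 131 reads at 25 °C, between 43.5 and 613, and a median of 70.6 at 11 °C, between 18.4 and 346. The median ratio was 1.61, the middle 50% of ratios ran from 1.49 to 1.86, and the highest was 5.77. In 41 peaks the 25 °C mean was at least 2 times the 11 °C mean, against 20 of the 155 peaks with the reverse difference. The peaks were weaker than the rest. Their overall mean had a median of 93.5 reads, against 181 for the other gene-end peaks and 124 for those higher at 11 °C. In the authors' deposited table, 206 of the 210 (98.1%) had an FDR under 0.05 with a positive log2 fold change. That contrast chose the peaks, so nothing is read from this share. The same call was made for 12.2% of all 8069 peaks and for 7.29% of the 4922 gene-end peaks, and the 210 peaks are 4.27% of those 4922. Another 153 gene-end peaks had that call with a difference of means under 0.5.

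**Figure D1:**
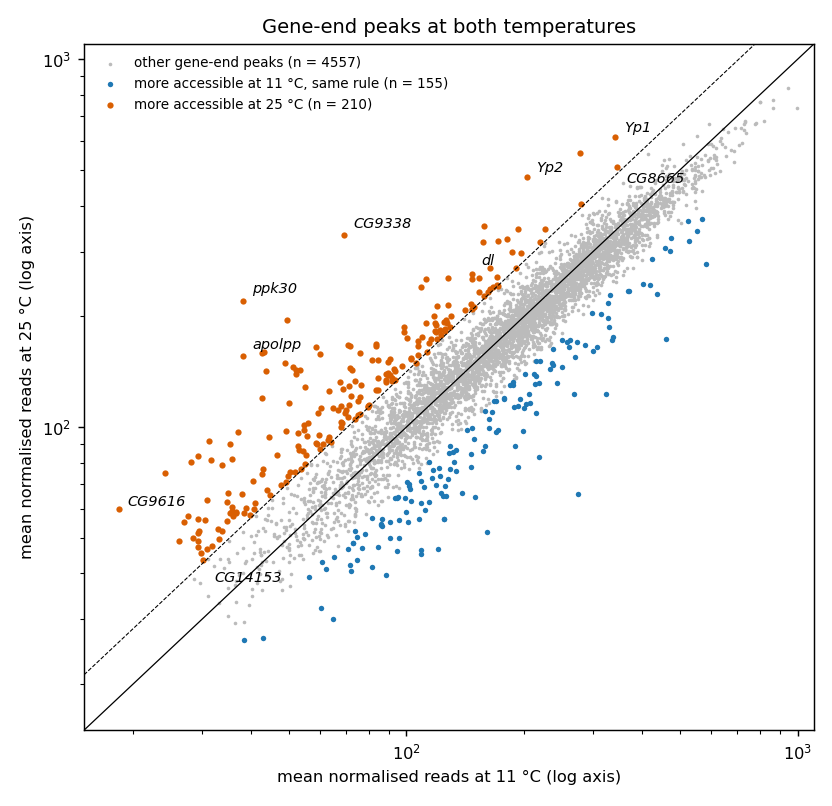
Mean normalised reads of 4922 gene-end peaks at 25 °C (vertical) against 11 °C (horizontal), both on log axes; each point is a peak, the solid line marks equal reads and the dashed line the chosen minimum of 1.41-fold. The 210 orange peaks lie above the dashed line by construction; Yp1 holds the most reads at 25 °C (613), and ppk30 lies farthest above the line of equality (220.5 against 38.2).

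At the edge of the difference condition, the 3 nearest peaks inside were those of Agpat4 (242 against 171 reads), CG4666 (159.9 against 113) and RpL7-like (149.7 against 106). The 3 nearest outside were those of Ugt302K1 (105 against 74.1), nmdyn-D7 (90.3 against 64.1) and tobi (255 against 181). At the edge of the level condition, CG31229, CG14153 and CG9616 lay just inside, and lncRNA:CR44026, Mlp84B and GalT1 just outside. The peaks of GalT1 and CG9616 differed more between temperatures than most of the set, with 41.8 against 23.3 and 59.7 against 18.4 reads.

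The yolk protein genes held some of the strongest peaks of the set. Yp1, Yp2 and Yp3 encode the yolk proteins, which fat body and follicle cells secrete for uptake by the oocyte, and all 3 had a member peak. The peak of Yp1 (chrX:10053554-10053954 in dm6, 57 bp outside the gene) held 613 reads at 25 °C and 341 at 11 °C. That of Yp2 (chrX:10052407-10052807, 29 bp inside) held 477 and 203. That of Yp3 (chrX:13759256-13759656, 90 bp outside) held 556 and 278. Yp1 and Yp2 are neighbours, and their peaks lie within 1548 bp. In the authors' deposited table the log2 fold change was 0.57 for Yp1 (FDR 0.0123), 0.61 for Yp3 (FDR 0.0142) and 0.37 for Yp2 (FDR 0.0794). Yp2 thus had the largest difference of means of the 3, 1.23 on the log2 scale, and the smallest fitted change.

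The list of yolk and storage proteins has 6 genes with a gene-end peak, and the other 3 were not in the set. The peak of yl, which encodes the yolk protein receptor of the oocyte, held 174 against 147 reads. Lsp2, a larval serum protein, held 104 against 112. Lsp1beta, another larval serum protein, held 123 against 206 and met the reverse condition.

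Next to the 2 largest, the widest difference lay at the end of apolpp (chr4:1076705-1077105, 368 bp inside the gene). apolpp encodes the precursor of the apolipophorins, the main lipid carrier of the haemolymph. The peak held 156 reads at 25 °C and 38.3 at 11 °C, and the log2 fold change in the authors' deposited table was 1.95 (FDR 1.51e-23). The same window holds an end of Actbeta, an activin-type ligand, so the peak cannot be given to 1 of the 2 genes. Peaks within the body of apolpp, which the set does not include, were also higher at 25 °C. There 4 peaks held 198 against 51.6, 261 against 47.8, 214 against 40.4 and 271 against 73.1 reads. The peak at the other end of apolpp held 219.9 against 219.

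The strong peak of Zyx, a focal adhesion protein, also lies inside apolpp, and held 403 against 280 reads. With CaMKII, a calcium-dependent kinase (83.5 against 29.4 reads), these 3 member peaks lie on chromosome 4, between the positions 1053601 and 1077105. Not all peaks there were higher at 25 °C. The peak of 219.9 against 219 reads at the other end of apolpp lies between those of CaMKII and Zyx. Just outside that stretch, at 1051223-1051623, another peak inside CaMKII held 60.3 against 94.7 reads (FDR 0.152 in the authors' deposited table).

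Of 10 lipid transport genes with a gene-end peak, 4 had a member, against 4.11% of all 7179 genes with such a peak. Beside apolpp the 4 were LpR1, a lipophorin receptor (121 against 75.9 reads), NLaz, a secreted lipocalin (153.9 against 103), and crq, a CD36-type scavenger receptor (59.9 against 40.7). In LpR1, 2 further peaks inside the gene held 178 against 108 and 54.9 against 33.5 reads. Others inside LpR1 held 44.5 against 58.6, 63.9 against 57.3 and 23.9 against 19.2. The related receptor LpR2 held 369 against 292, a difference under the threshold. Mtp, which assembles lipoproteins, held 243 against 223 at 1 end and 297.5 against 341 at the other, and Apoltp, which transfers lipid to them, held 241 against 216.

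**Figure D2:**
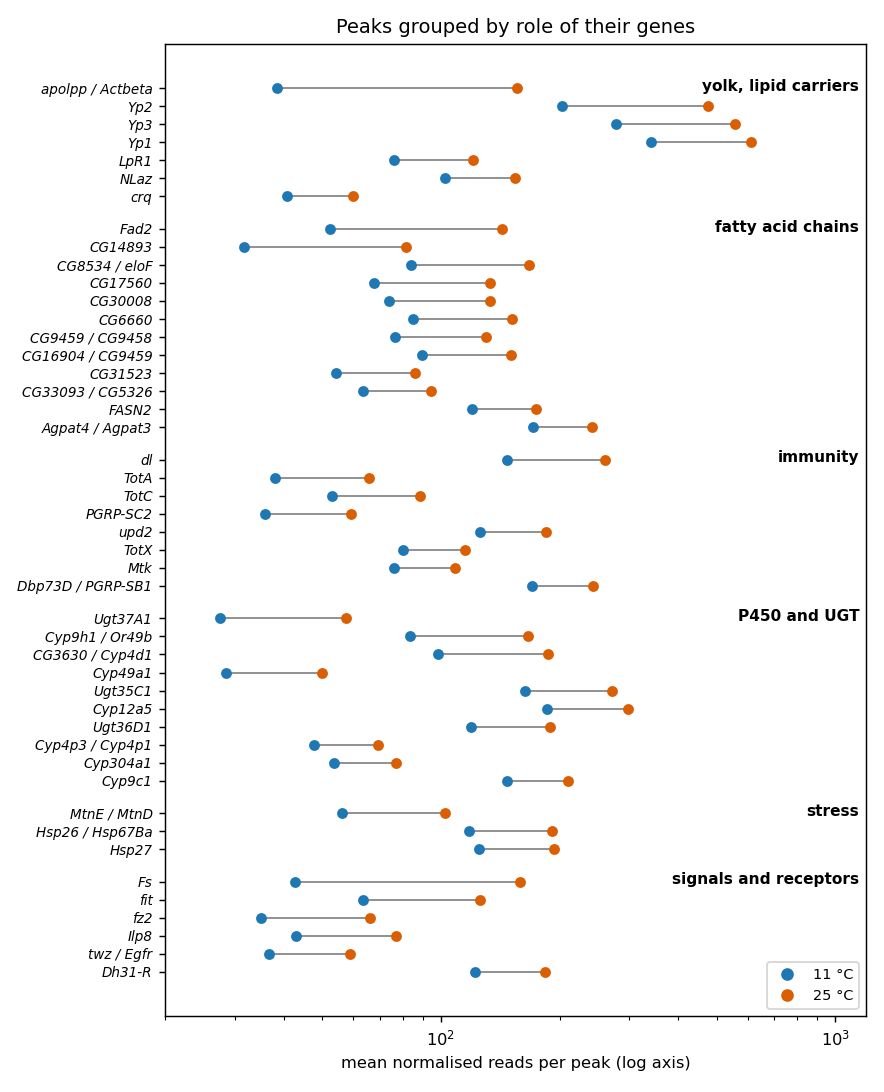
Mean normalised reads at 11 °C (blue) and 25 °C (orange) of 46 member peaks on a log axis, grouped by the role of their genes and ordered by ratio within each group; a line joins the 2 means of a peak. The yolk protein peaks hold over 200 reads at both temperatures, while CG14893 starts from 31.7 reads at 11 °C and apolpp from 38.3.

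Genes that build, lengthen or reduce fatty acid chains formed the next group. These families were picked after the values were seen. Elongases add carbons to long-chain fatty acids, and in insects their products feed the cuticular hydrocarbons. Of 15 elongase genes with a gene-end peak, 9 had a member, against 295 of all 7179 genes (4.11%) with such a peak, and none met the reverse condition. The 9 genes share 7 peaks. The strongest difference was at the peak between CG8534 and eloF (chr3R:9813848-9814248, 109 bp outside CG8534), with 168 against 83.8 reads. eloF encodes a female-biased elongase of long-chain pheromones. In the authors' deposited table this peak had a log2 fold change of 0.91 (FDR 9.39e-10).

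That peak and 2 more stand within 4863 bp on arm 3R. The peak of CG16904 and CG9459 held 151 against 89.5 reads, and the peak of CG9459 and CG9458 held 130.1 against 76.7. CG9459 therefore had a member at either end. Elsewhere, CG6660 held 152 against 84.8 reads, CG30008 133 against 74.0, CG5326 94.1 against 63.4 and CG31523 86.1 against 54.3. The other 9 elongase peaks did not reach the threshold. Among them, the peak of CG18609 and CG17821 held 82.4 against 67.7 reads, and the other ends of CG30008 and CG31523 held 219 against 183 and 311 against 341. The remaining 6, at Baldspot, CG31141, Elovl7 and CG33110, had ratios between 0.86 and 1.11. Over all 16 elongase peaks the median difference was 0.27 (log2), against -0.03 over all gene-end peaks.

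Fad2, also called desatF, encodes a desaturase that makes female pheromone dienes. Its peak (chr3L:11023355-11023755, 20 bp inside) held 143 reads at 25 °C and 52.3 at 11 °C. The fitted log2 fold change in the authors' deposited table was 1.09 (FDR 0.000283), below the difference of means of 1.45. FASN2, a fatty acid synthase, held 174 against 119.8 reads. Further peaks of FASN2 held 377 against 359, 149 against 147 and 128 against 102. The peak shared by Agpat4 and Agpat3, acyltransferases of glycerolipid synthesis, held 242 against 171. Agpat3 was the sole member among 18 lipid storage and lipolysis genes with a gene-end peak. Those 18 include bmm, the main triglyceride lipase, with 146 against 144 and 268 against 319 reads, and Lsd-2, a lipid droplet coat protein, with 551 against 581 and 292 against 373.

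Fatty acyl-CoA reductases, which make fatty alcohols for waxes, went both ways. CG14893 held 81.6 against 31.7 reads and its neighbour CG17560 133 against 67.6, with peaks that span 3385 bp on arm 3R. CG30427 held 110.4 against 159.1, and the peak shared by CG8303 and CG8306 held 99.1 against 163. Of 9 such genes with a gene-end peak, 2 had a member and 3 a peak with the reverse difference, beside 4.11% and 3.04% of all genes.

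**Figure D3:**
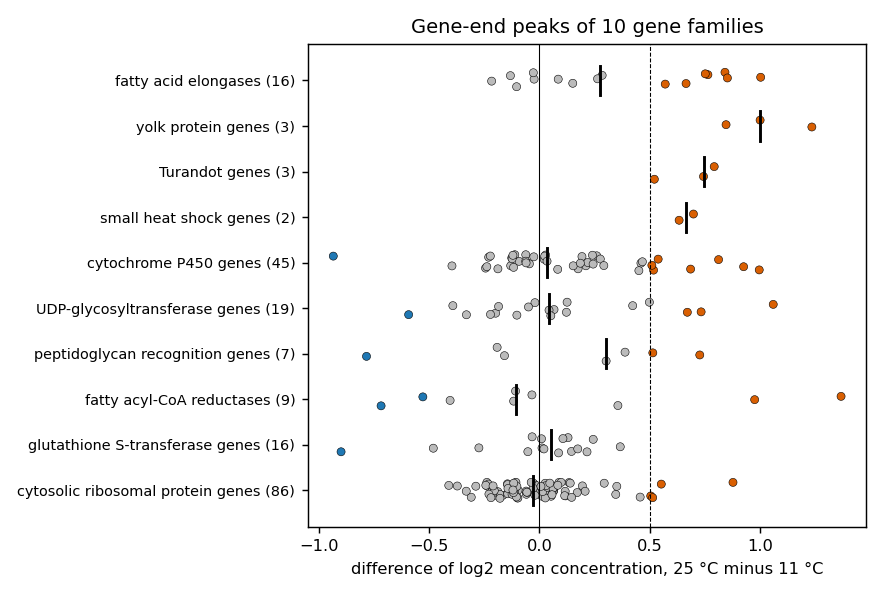
Difference of the log2 mean concentration, 25 °C minus 11 °C, at every gene-end peak of 10 gene families; each point is a peak (number in parentheses), orange points are members, blue points meet the reverse condition, and the black bar is the family median. All 3 yolk protein peaks, all 3 Turandot peaks and both small heat shock peaks lie to the right of the dashed threshold of 0.5, and the reductases lie on either side of 0.

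Genes of the humoral immune response, through which the fat body answers infection and stress, followed. Of 39 genes with a gene-end peak, 6 had a member and none met the reverse condition, beside 4.11% and 3.04% of all genes. The highest level was at dl (chr2L:17450270-17450670, 106 bp outside), which encodes the NF-kappaB factor Dorsal of the Toll pathway. It held 260.2 reads at 25 °C and 147 at 11 °C, a log2 fold change of 0.79 in the authors' deposited table (FDR 6.39e-12). upd2, a cytokine that the fat body releases in the fed state, held 185 against 126. Mtk, the antifungal peptide metchnikowin, held 109 against 75.9, and its gene is so short that both ends lie in the window. PGRP-SC2, an amidase that degrades bacterial peptidoglycan, held 59.2 against 35.8.

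Turandot genes encode small stress-induced proteins that the fat body secretes, and all 3 with a gene-end peak were members. TotA held 65.7 against 37.97 reads and TotC 88.6 against 52.9, at peaks that span 2202 bp. TotX, further along the same arm, held 115 against 80.2. The family was picked after these values were seen. The same holds for the peptidoglycan recognition genes, of which 2 of 7 were members. PGRP-SB1 shared a peak of 243 against 170.0 reads with Dbp73D, while PGRP-LA held 55.8 against 95.9 and met the reverse condition. Other immune genes with a peak stayed below the threshold: AttC, the antibacterial attacin C, held 133 against 101 reads, DptB, a diptericin, 159 against 134, and imd, the adaptor of the Imd pathway, 387 against 322.

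Among 17 stress response genes with a gene-end peak, 5 had a member, on 3 peaks, beside 4.11% of all genes. Over the 18 gene-end peaks of that list the median difference was -0.0007 (log2). Small heat shock proteins are chaperones that hold unfolded proteins. The peak between Hsp26 and Hsp67Ba held 191 against 118 reads, and that of Hsp27 193 against 125. The peaks lie within 6744 bp in the heat shock gene cluster of arm 3L. MtnE and MtnD, metal-binding metallothioneins, share a peak of 102 against 56.1. MtnA held 167 against 132 and was not a member. Of the genes of oxidative defence in the list, Sod1, a superoxide dismutase, held 242 against 229 reads, and Cat, catalase, 185 against 192.

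Enzymes that modify toxins and hormones were read by family. Of 43 cytochrome P450 genes with a gene-end peak 8 had a member, as had 3 of 18 UDP-glycosyltransferase genes, and none of 19 glutathione S-transferase genes had, beside 4.11% of all genes. Each family also had 1 gene with the reverse difference: Cyp4e3 (56.4 against 108 reads), Ugt37D1 (170.4 against 257) and GstE12 (165 against 308). These 3 families were set together after the values were seen. Cyp9h1 held 167 against 83.5 reads, Cyp4d1 (with CG3630) 187 against 98.5, Cyp12a5 299 against 186, and Cyp9c1 209.6 against 147. Cyp49a1, Cyp304a1 and the peak of Cyp4p3 and Cyp4p1 were weaker, between 50.0 and 76.9 reads at 25 °C. Of the glycosyltransferases, Ugt37A1 held 57.4 against 27.6 reads, Ugt35C1 271 against 163 and Ugt36D1 189 against 119. The fixed detoxification list names 25 genes with a gene-end peak, of which Ugt37A1 and Cyp4p1 were members. Cyp4g1, the P450 that ends hydrocarbon synthesis in oenocytes, held 218 against 158 and Cyp6a2 402 against 328, and neither reached the threshold.

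Ligands, receptors and signalling enzymes were spread over the set. Fs encodes follistatin, a secreted protein that binds activin-type ligands. Its peak (chr2R:15241375-15241775, 14 bp inside) held 159 reads at 25 °C and 42.7 at 11 °C, with a log2 fold change of 1.78 in the authors' deposited table (FDR 1.6e-21). Actbeta, such a ligand, shares the apolpp peak described above. fz2, a Wnt receptor, held 66.0 against 35.0, and the peak between twz and Egfr, the epidermal growth factor receptor, held 58.8 against 36.7. These make 3 members among 26 signalling genes with a gene-end peak, and 3 of the 26 met the reverse condition. Each count is 11.5% of the list, beside 4.11% and 3.04% of all genes. The median difference over the gene-end peaks of this list was -0.04 (log2).

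Ilp8, a relaxin-like peptide, held 77.1 against 42.9 reads and was the sole member among 19 insulin and TOR genes with a gene-end peak. Another 1 of the 19 met the reverse condition. These shares of 5.26% each lie near the 4.11% and 3.04% of all genes. Ilp6 held 132 against 218 reads and met the reverse condition. foxo, the transcription factor that insulin signalling restrains, held 316 against 359, and Thor, the translation repressor 4E-BP, 381 against 401. fit, a female-biased peptide that the fat body secretes, held 126 against 63.4 reads at a peak near CG17819. Chosen after their values were seen, the neuropeptide receptor genes Dh31-R and SIFaR held 183 against 122 and 233 against 153. Pkg21D, a cGMP-dependent kinase, held 127 against 68.8, and wun, a lipid phosphate phosphatase, 146 against 51.1.

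The 2 largest differences of the set were at genes outside these lists. The peak of ppk30 and Obp99a (chr3R:29671217-29671617, 61 bp inside ppk30) held 220.5 reads at 25 °C and 38.2 at 11 °C. ppk30 encodes a subunit of the degenerin family of sodium channels and Obp99a a secreted odorant binding protein. The peak of CG9338, a Ly6-type membrane protein (chr2L:20864824-20865224, 191 bp outside), held 332 against 69.2. In the authors' deposited table their log2 fold changes were 2.36 (FDR 1.78e-19) and 2.20 (FDR 3.11e-60). A second Ly6 peak, between CG14401 and CG31675, lies within 5370 bp of it and held 346 against 193.

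Beside these and the peaks of apolpp, Fs, wun and CaMKII given above, the 15 largest differences lay at CG30197, CG32751 with CG32750, CG10184 with CG31145, CG9616, the antisense RNA gene asRNA:CR45330, CG6000 with Pisd, CG31832, CG17375 and, among named enzymes, Jon74E with CG7542. Their 25 °C means ran from 59.7 to 195 reads and their 11 °C means from 18.4 to 49.5. Pisd encodes phosphatidylserine decarboxylase, which makes phosphatidylethanolamine in mitochondria. Jon74E and CG7542 encode serine proteases of the digestive type, and their shared peak held 120.3 against 42.7.

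The 6 strongest peaks by overall level were those of Yp1, CG8665, Yp3, Zyx, Yp2 and GrlHz. CG8665, annotated here by number only, held 509 against 346 reads, and GrlHz 346 against 225. Their ratios of 1.47 and 1.53 are below the median of the set.

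Transport genes were met several times outside the fixed lists and were chosen after their values were seen. The sugar transporter gene nebu held 320.0 against 171 reads at its end. 4 more of its peaks, inside the gene, held 52.8 against 28.8, 42.3 against 21.9, 54.0 against 32.5 and 105 against 49.0, while another held 379 against 388. sut1, another sugar transporter, held 171 against 107, Mct1, a monocarboxylate transporter, 94.9 against 59.8, and Orct2, an organic cation transporter, 181 against 119. Among 17 sugar and glycogen genes of the fixed list, Amy-p, an amylase, held 55.3 against 26.99 reads, and Ald1, an aldolase of glycolysis, 68.1 at 11 °C and 1.47 times as many at 25 °C. At the other ends of these genes the values were 73.7 against 73.7 at Amy-p and 578 against 652 at Ald1.

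Of 24 ribosome and translation genes with a gene-end peak, 3 were members: RpL10 (56.0 against 30.5 reads), RpS5a (114 against 79.6, shared with mei-218 and mei-217) and eEF2, the elongation factor of translocation (139 against 88.6, shared with CG2225). Over 73 cytosolic ribosomal protein genes, RpL17 (157 against 107) and RpL7-like (149.7 against 106) made it 4, or 5.48%, which lies near the 4.11% of all genes. RpL10 also has a stronger peak at its other end, with 173 against 163. ph-p, a Polycomb group gene, held 183 against 119 and was the sole member of 30 chromatin and transcription genes. Timp, an inhibitor of matrix proteases, held 58.5 against 38.4 and was the sole member of 7 cuticle and matrix genes, of which 3 met the reverse condition.

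No member lay at the 11 juvenile hormone genes, 13 ecdysone genes, 21 mitochondrial respiration genes or 9 clock genes that had a gene-end peak. With a member at 4.11% of all genes, a count of 0 in lists of this size lies near the background. per, a clock repressor gene, held 307 against 457 and met the reverse condition. Met, a juvenile hormone receptor, held 53.3 against 43.1 and 94.8 against 95.8 reads, and Kr-h1, the target gene of that hormone, 46.8 against 38.3. Of the ecdysone genes, Hr38, a nuclear receptor, held 185 against 148 and Eip74EF, an ETS factor, 314 against 253, and both had an FDR under 0.05 in the authors' deposited table (0.0291 and 0.0341). Outside these lists, JhI-21, an amino acid transporter gene named for its induction by juvenile hormone, shares the RpL7-like peak. ND-39 and ND-B17, subunits of respiratory complex I that the list does not name, held 63.3 against 30.9 and 174 against 116. In all, 34 of the 210 peaks lay at a gene of a fixed list, and 78 were named for a gene with a CG number only.

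Marker genes of other cell types that a dissected fat body can hold were set beside these values. The oenocyte list, for the hydrocarbon-making cells that adhere to the fat body, had 7 of 12 entries with a gene-end peak, and 2 of them, eloF and FASN2, were members. Cyp4g1 and FarO of that list held 218 against 158 and 115 against 89.8 reads, while svp, Desat1 and salm lay between a 25 °C to 11 °C ratio of 0.89 and 1.03. Its 8 peaks held 1596 reads at 25 °C and 1389 at 11 °C in sum, with a median difference of 0.21 (log2). Fad2, which stands in the fat body list, is known from oenocytes. What part such cells had in the elongase and desaturase peaks was not tested.

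Haemocyte marker peaks held 1341 against 1321 reads in sum, with a median difference of 0.25 (log2) over 6 peaks. Of the 5 genes with such a peak 1, crq, was a member at 1 end, and its other end held 309 against 339.8 reads. PPO2 and lz, markers of crystal cells, held 176 against 128 and 112 against 85.6, and ush 259 against 334. Germ line and follicle marker peaks held 1005.5 against 945 in sum, with a median difference of -0.07 (log2). Of these 6 genes, tj, a transcription factor of follicle cells, was a member with 318 against 219.6 reads and an FDR of 0.311 in the authors' deposited table. Another peak, inside tj, held 211 against 138 reads, with an FDR of 0.0426 there. piwi and bam, of the germ line, held 77.2 against 97.0 and 59.9 against 74.1. Zasp66 (46.5 against 30.9) was the member among 5 muscle genes, whose peaks held 824 against 928 in sum, and Mef2, the main muscle transcription factor, held 358.5 against 436. No member lay at the 3 neuron genes, 3 glia genes or 2 nephrocyte and trachea genes with a gene-end peak. In lists this short a count of 0 lies near the background. Their peaks held 489 against 524, 1469 against 1582 and 383 against 508 reads in sum, in that order. In the nephrocyte and trachea list, 1 of the 2 genes met the reverse condition.

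The fat body list itself had 16 genes with a gene-end peak, of which 5 were members (apolpp, Fad2 and the yolk protein genes). Another 2, Col4a1 (364 against 524 reads) and Ilp6 (132 against 218), met the reverse condition. Of all genes, 4.11% had a member and 3.04% met the reverse condition. Its 20 peaks held 6156 against 5671 reads in sum, with a median difference of -0.04. Pepck1, Lsd-1 and AkhR, genes of gluconeogenesis, lipid droplets and the response to adipokinetic hormone, held 418 against 466, 375 against 425 and 186 against 239.9.

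The deposited fold changes were smaller than the differences of means in every one of the 210 peaks, with a median quotient of 0.90 and a lowest of 0.30. The median log2 fold change was 0.60 in the authors' deposited table, and 182 peaks had an FDR under 0.01. The same contrast chose the peaks, and no share of all peaks is given at that threshold. Nothing is therefore read from this count. The 4 peaks with an FDR of 0.05 or more in that table were those of Yp2 (0.0794), CG17698 (0.106), toc (0.216) and tj (0.311). toc, a microtubule-associated gene, held 139 against 90.7 reads and CG17698 103 against 67.9. No member had a fitted change of 0 or below.

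**Figure D4:**
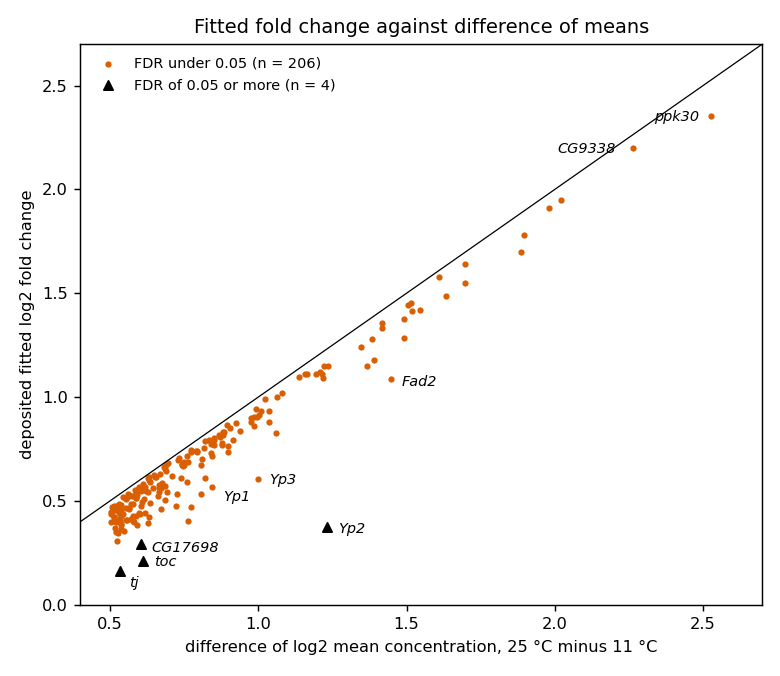
Log2 fold change in the authors' deposited table against the difference of the 2 log2 means for the 210 peaks; the line marks equality, orange points have an FDR under 0.05 and black triangles do not. All points lie below the line, the triangles (Yp2, tj, toc and CG17698) lie farthest below it in proportion to their difference, and ppk30 and CG9338 stand at the upper right.

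The position of the peaks relative to genes was not part of the rule beyond the window of 500 bp. All but 3 peaks of the whole table are 401 bp wide. The midpoint lay a median of 101.5 bp from the end of the named gene, against 78 bp in the 4712 other gene-end peaks and 113 bp in those higher at 11 °C. The peak covered that end in 71.4% of members, 83.6% of the others and 71.0% of those higher at 11 °C. The midpoint lay outside the named gene in 63.3%, 48.5% and 65.8%, respectively. In these features the members and the peaks higher at 11 °C were alike in their shares, and both sets hold fewer reads than the rest. The part of read level in these shares was not tested.

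Windows with several genes were counted next. Ends of 2 or more coding genes lay in the window of 63 of the 210 members, 52.9% of the others and 32.3% of those higher at 11 °C. The midpoint was inside another gene in 52 members (24.8%), against 15.1% and 18.1%. CG30286 and its peak stand inside Egfr, fzo, the germ line mitofusin, inside cnc, and TotX inside Grik. LysS, a lysozyme, and CG9119 both stand inside mwh, and Spc25 and Cyp304a1 both inside grsm.

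Gene length was compared in the same way. The coding genes named had a median length of 2331 bp, against 2998.5 bp for the others and 5357 bp for those higher at 11 °C. The named gene was under 2 kb long in 43.8%, 33.7% and 25.8% of the 3 sets, and over 20 kb in 7.62%, 7.85% and 16.1%. The longest were mamo, mtgo and fz2. By arm, 62 members (29.5%) lay on 3R, where 23.4% of the others and 31 of the 155 higher at 11 °C lie, and 29 (13.8%) on X, against 17.1% and 22.6%. No test was made of these shares, since peaks are not replicates.

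**Figure D5:**
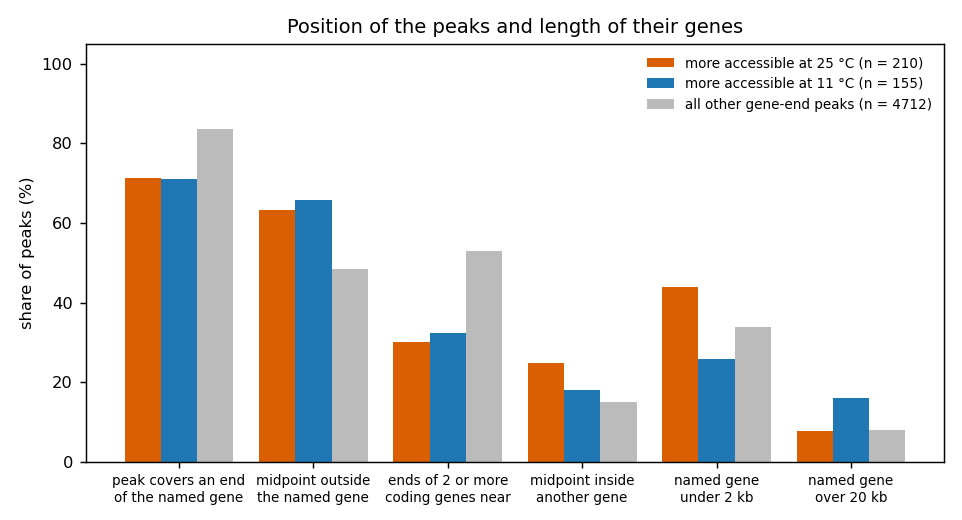
Share of peaks (vertical axis, %) with each of 6 features of position and gene length for the 210 members (orange), the 155 peaks with the reverse difference (blue) and all 4712 gene-end peaks that are not members (grey, which include the blue set). Bars carry no error, since the peaks are not replicates; the orange and blue bars are close in the first 3 features, and the widest gap between them is in genes under 2 kb (43.8% against 25.8%).

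Non-coding genes named 18 members. These were 7 long non-coding RNA genes, 5 antisense RNA genes, 2 pseudogenes and 1 each of an snRNA, a microRNA, a snoRNA and a further small RNA gene. The widest difference was at asRNA:CR45330, whose window also holds genes of the spliceosomal RNAs U2 and U5, with 74.9 against 24.2 reads. The snRNA gene was snRNA:U1:82Eb, with 114 against 79.8. snRNA genes exist in near-identical copies, and the sources used here do not say how reads that map to several places were treated, so these values are uncertain. The microRNA gene mir-3642, inside Apt1, held 191 against 112, and lncRNA:CR44720 held 166 against 71.8.

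The nearest neighbouring peaks were read next. Of 143 members with another peak of any kind within 5 kb, 31 (21.7%) had a nearest neighbour with a difference of 0.5 or more, and 3 (2.10%) had one of -0.5 or less. Of those 31 neighbours, 14 were members, which the same difference had chosen. Without neighbours that are members, the count was 17 of 129 (13.2%) for the members, 81 of 3186 (2.54%) for the other gene-end peaks and 2 of 68 (2.94%) for the peaks higher at 11 °C. The median of these 129 neighbours was a difference of 0.07 (log2). No test was made of these shares.

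In 12 places 2 or 3 members stood within 10 kb of each other. Beside the pairs and trios named above, these were CG31810 with CG31809, Cul6 with both ends of MICAL-like and CG11267, CG44006 with lncRNA:CR45392, Spc25 with Cyp304a1, CG6656 with fit, and CG5346 with the peak of CG33093 and CG5326. CG9459 and MICAL-like were the genes with 2 member peaks. The peaks of Spc25, of the kinetochore, and Cyp304a1 span 1768 bp and held 47.3 against 29.3 and 76.9 against 53.7 reads.

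Other peaks of the same genes were not chosen by the rule, though they come from the same libraries. Of 192 members named for a coding gene, 69 had a gene with further peaks, and 136 distinct further peaks were not members, of which 26 had a difference of 0.5 or more and 8 one of -0.5 or less. In the authors' deposited table, 35 of the 136 (25.7%) had an FDR under 0.05 with a higher level at 25 °C, 12 (8.82%) with a higher level at 11 °C, and 89 had a higher FDR. Over all 8069 peaks these calls were made for 12.2% at 25 °C and 10.0% at 11 °C. The median difference of the 136 was 0.08 (log2).

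Some long genes held peaks of both directions. In fz2, 1 inner peak held 166 against 52.4 reads and another 52.1 against 119. Tis11, which encodes a factor of messenger RNA decay, held 67.3 against 43.9 at its end, 229 against 128 and 83.3 against 41.5 at 2 inner peaks, and 321 against 526 at another inner peak. In mamo, a transcription factor gene, the end peak held 254 against 127 and an inner peak 310.0 against 510.2. CG5346, cdi and nuf likewise had an inner or far-end peak with the reverse difference, of 121 against 246, 43.8 against 85.7 and 131.0 against 222 reads.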

How the data were processed

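Fat body of 16 samples was measured by ATAC-seq with the Omni-ATAC protocol, per the labels' protocols. Per the submitters' processing notes, the tools were DiffBind, MACS2, Bowtie2, bedtools, Picard, SAMtools, cutadapt, Trim Galore and FastQC, with no version or role named, on build dm6. Read shifting, treatment of duplicates, merging of peaks and scaling are not given in the sources used here. Scaling can move all differences by 1 amount; the median difference of the 7846 peaks with an overall mean of at least 5 is -0.02.

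A single deposited table was used. Per the file headers it gives the authors' log2 mean concentration of each of 8069 peaks over all libraries used and over those of each temperature. It adds a fitted log2 fold change, and each peak has a deposited p-value and an FDR. Printed reads are 2 raised to the deposited log2 concentration. Adjusting the deposited p-values by Benjamini-Hochberg returns the FDR column. The depth of the libraries is unknown, and intervals and floors on reads are left out. p-values measure only the spread between these samples, since nothing states how the replicates were kept apart.

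Gene ends came from a RefSeq gene table of assembly Release 6 plus ISO1 MT, on which dm6 rests, with 17796 genes on the chromosomes that hold peaks. It gives no strand or exon. Peaks are named for the coding gene whose end is nearest within 500 bp, otherwise for another gene, and a peak near several genes counts for each. Sequence was not analysed here. Of 580 entries in 24 gene lists, 543 matched a symbol and 23 a synonym. The background of every count of genes by list or family is the 7179 genes with a gene-end peak. Of these, 4.11% had a member and 3.04% met the reverse condition. Genes were named by a rule: the 15 largest differences, the 6 highest levels, the leading members of each list, genes with 2 members, members with a high FDR and those nearest the thresholds. The members, lists and rule were chosen with earlier results of these data known. Other genes, and all families, were named after their values were seen. Peaks are not replicates, so no test was made beyond the authors'. The selection was tested on simulated data. Python 3.11.15, pandas 2.3.3, numpy 2.4.6 and scipy 1.17.1 were used. Alternatives to the window, the difference, the level, the tRNA rule, the centring and the FDR threshold were tried.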

Additional observations from a re-analysis of the deposited data

How the results depend on the processing

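The conditions that chose the peaks set their number. With a difference of at least 0.75 the set has 90 peaks and with at least 1 it has 41, in place of 210, because those conditions are stricter. The median log2 fold change in the authors' deposited table is then 1.18 at a difference of at least 1, in place of 0.60. At an FDR under 0.01 the called share is 86.7%, in place of 98.1%. Nothing is read from either share, since the same contrast chose the peaks. The other 7 alternatives for the number gave 155 to 257 peaks, the other 9 for the median gave 0.57 to 0.87, and the other 9 for the share gave 96.5% to 98.9%. All 3 ranges cover changes to the window around the gene end, the minimum level, the kind of gene, the tRNA rule and the centring. The ranges of the median and of the share also cover the difference of at least 0.75, which gave 0.87 and 98.9%. The median was also taken over the differences of means (0.69), and the share at a difference of at least 1 (97.6%). No paired analysis was possible because the table holds 1 mean per temperature and no value per library, and leaving out each replicate in turn was not possible for the same reason. The planned split into gene starts and 3′ ends, the promoter motifs and the GC content were not run, since the gene table gives no strand or sequence. The unknown depth limits what can be said of the weakest peaks: at 32 reads, a ratio of 1.41 rests on few reads.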

Other observations

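Some member peaks lay at genes of digestive-type enzymes, noticed after the values were seen and given as values. The peak shared by the carboxypeptidase genes CG18417 and CG8562 held 201 reads at 25 °C and 117 at 11 °C. CG4408, another carboxypeptidase gene, held 169 against 114. The serine protease genes CG5246 and CG30286 held 94.5 against 55.6 and 89.9 against 61.1, and the lysozyme gene LysS 83.7 against 55.4. With Jon74E and Amy-p, described above, these are 7 peaks at genes of digestive-type enzymes. They were grouped by the kind of enzyme, and where each gene is expressed was not examined. How many genes of such enzymes have a gene-end peak was not counted. The 7 peaks therefore give no share to set beside the 4.11% of all genes that had a member. No list of gut markers was among those fixed, and what part gut tissue had in these values was not tested. 2 other Jonah protease genes with a gene-end peak, Jon25Bi and Jon25Biii, held 52.6 against 49.2 and 69.6 against 68.5.

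Genes derived from retrotransposon gag sequences gave 2 members. Gagr held 165 against 58.9 reads at its end and 87.6 against 40.2 at a peak inside it. Arc1, whose protein forms capsids that carry RNA between cells, held 139.6 against 52.3 at a peak whose midpoint lies 1 bp from its end. Its FDR in the authors' deposited table was 2.55e-22 with a log2 fold change of 1.36.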
